A study of Homo sapiens with 9 samples.

Results

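Of the 2757 RNA polymerase II peaks in the control list, 840 were also found after knockdown of U2AF1 and after knockdown of DHX9. These 840 shared peaks, 30.5% of the control list, are described here. They were chosen by overlap alone: a control interval entered when at least 1 of its bases was covered in the U2AF1 knockdown list and at least 1 in the DHX9 knockdown list. Another 1001 control peaks were overlapped in the DHX9 knockdown list alone and 114 in the U2AF1 knockdown list alone, while 802 were overlapped in neither. The overlap used the peaks themselves, and strong peaks are found more easily in any list. Peak strength, width, presence and closeness of position between lists are therefore given as descriptions of the selected peaks, with no test.

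POLR2A is the largest subunit of RNA polymerase II, the enzyme that transcribes protein-coding genes and most spliceosomal small nuclear RNA genes. At many promoters the enzyme starts, makes a short RNA and pauses a little way downstream, so that chromatin immunoprecipitation and sequencing (ChIP-seq) of POLR2A gives a narrow peak just past the start. U2AF1 is the smaller partner in the dimer that recognises 3′ splice sites, and DHX9 is a helicase that unwinds RNA and RNA-DNA hybrids. R-loops, the RNA-DNA hybrids named in the title of the series, form behind transcribing polymerase, often at promoters whose coding strand is rich in G downstream of the start.

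All samples were HEK293T cells, a human embryonic kidney line, given a control shRNA (labelled wildtype), a U2AF1 knockdown or a DHX9 knockdown. Each of the 3 conditions had 2 POLR2A ChIP replicates and 1 input, and 1 deposited peak list. No value below therefore has a replicate error, and no difference between lists was tested against one. Peak names in the control list end in a form that reads as replicate 1, and those of the knockdown lists carry no number, so the number of libraries behind the control list, 1 or 2, is unknown. The lists give no read depth and record neither RNA nor protein, so the extent of either knockdown and the identity of the cells were not checked here. A fold enrichment is the authors' own ratio for that peak, and places are ranks by it within 1 list: the control list holds 2757 peaks, and there are 1730 after U2AF1 knockdown and 4443 after DHX9 knockdown. Where 3 values follow each other without a further word, the first is from the control list, the second from U2AF1 knockdown and the third from DHX9 knockdown.

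Of the 10 shared peaks with the highest mean place, 5 stood at genes for the small nuclear RNAs (snRNAs) of the spliceosome, and promoter sequences of such genes are shown first. These genes have no TATA box as a rule and are started from a proximal sequence element upstream of the start, which the snRNA activating complex binds. The 7 stretches below, read from hg38, are the 90 bases before the annotated start, and capitals mark TNACC, the inner part of that element, where it begins 50 to 65 bases before the start on the coding strand. RNU1-27P, the U2 gene and RNU12 are among the 10 shared peaks with the highest mean place, and RNVU1-31 is the snRNA gene with the lowest. The other genes were added to show each class of spliceosomal RNA. RNU1-27P, RNVU1-31 and U2 have near-identical copies elsewhere in the genome.
RNU1-27P, before the start, chr14:34546624-34546713, plus strand: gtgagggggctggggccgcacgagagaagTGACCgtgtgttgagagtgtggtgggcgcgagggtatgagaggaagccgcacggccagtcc
U2, before the start, chr17:43300232-43300321, minus strand: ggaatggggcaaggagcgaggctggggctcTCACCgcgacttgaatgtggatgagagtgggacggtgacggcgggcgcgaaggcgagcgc
RNU5D-1, before the start, chr1:44731171-44731260, minus strand: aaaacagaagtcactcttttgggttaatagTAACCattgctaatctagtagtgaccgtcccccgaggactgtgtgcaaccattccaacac
RNU4-2, before the start, chr12:120291904-120291993, minus strand: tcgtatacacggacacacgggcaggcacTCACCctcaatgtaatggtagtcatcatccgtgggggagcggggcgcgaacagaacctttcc
RNU4ATAC, before the start, chr2:121530791-121530880, plus strand: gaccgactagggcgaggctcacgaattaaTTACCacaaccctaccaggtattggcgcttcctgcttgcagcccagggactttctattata
RNU12, before the start, chr22:42615154-42615243, plus strand: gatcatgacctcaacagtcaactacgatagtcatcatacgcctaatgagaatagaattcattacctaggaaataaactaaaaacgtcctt
RNVU1-31, before the start, chr1:145465781-145465870, minus strand: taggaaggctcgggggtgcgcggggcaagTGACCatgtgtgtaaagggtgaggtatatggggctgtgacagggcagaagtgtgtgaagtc
TNACC stood in this window at 39 of the 49 snRNA genes with a shared peak at their start, or 79.6%. Among the 21 without a near-identical copy it stood at 13. In 100-base stretches before the protein-coding starts of the RefSeq promoter table it was found at the same distance in 871 of 22199, or 3.92%. It began 61 bases before the start at the median, with a range of 50 to 62, and RNU12 has no match in that window. The pattern was settled after these sequences had been read, and a match describes letters only.

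Past their 3′ ends the same genes carry a 3′ box, which directs the ends of the transcripts. The 3′ box consensus was searched on the coding strand, within 40 bases past the end, and found at 21 of the 49 genes and at 4 of the 21 without a near-identical copy, beginning 6 to 16 bases past the end. Capitals mark it in the first 2 of these 3 stretches of 36 bases, and the third has no exact match.
U2, past the end, chr17:43300005-43300040, minus strand: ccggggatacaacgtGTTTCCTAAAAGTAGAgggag
RNU5D-1, past the end, chr1:44731019-44731054, minus strand: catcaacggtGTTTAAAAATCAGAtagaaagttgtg
RNU4ATAC, past the end, chr2:121531008-121531043, plus strand: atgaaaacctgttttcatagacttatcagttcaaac

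Most shared peaks, however, lay at CpG-rich promoters of protein-coding genes. The stretches below are the bases before the canonical start of 9 protein-coding genes, up to 120 each and outside annotated exons. POLR2A and H1-2 are less rich in GC than most around the control summit, with 53.2% and 49.5%. At H1-2 that summit lay 855 bp past the nearest coding start, so its value does not describe the stretch shown. The 9 genes were chosen from those named later by their place in the lists or as the extremes of a gene list. Capitals mark the TATA box (TATAAA), the CCAAT box, the GC box (GGGCGG), the ETS site (CCGGAAG) and the CRE site on either strand. TUBB2A and EEF2 hold TATAAA 30 bases before the start and H4C2 holds it 31 bases before. POLR2A and UNC5B hold GC boxes, read as GGGCGG or its reverse, and none of the other motifs marked.
POLR2A, before the start, chr17:7484264-7484365, plus strand: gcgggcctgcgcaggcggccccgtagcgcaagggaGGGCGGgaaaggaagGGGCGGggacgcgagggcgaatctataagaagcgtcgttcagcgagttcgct
TUBB2A, before the start, chr6:3157545-3157664, minus strand: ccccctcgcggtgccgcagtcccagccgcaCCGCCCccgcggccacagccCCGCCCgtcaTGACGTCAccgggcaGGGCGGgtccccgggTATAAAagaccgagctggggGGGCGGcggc
H4C2, before the start, chr6:26027284-26027403, minus strand: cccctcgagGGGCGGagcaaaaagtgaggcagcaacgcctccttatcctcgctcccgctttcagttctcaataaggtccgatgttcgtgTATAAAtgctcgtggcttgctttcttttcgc
H1-2, before the start, chr6:26056471-26056590, minus strand: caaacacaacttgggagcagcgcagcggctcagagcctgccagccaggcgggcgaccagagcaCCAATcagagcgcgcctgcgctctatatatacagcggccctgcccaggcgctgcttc
JUND, before the start, chr19:18281623-18281742, minus strand: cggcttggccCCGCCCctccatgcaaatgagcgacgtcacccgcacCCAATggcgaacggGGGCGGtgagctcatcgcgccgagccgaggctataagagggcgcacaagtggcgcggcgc
EEF2, before the start, chr19:3985464-3985583, minus strand: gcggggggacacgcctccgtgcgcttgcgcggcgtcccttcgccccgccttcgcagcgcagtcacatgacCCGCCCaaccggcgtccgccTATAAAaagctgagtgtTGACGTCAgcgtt
DENR, before the start, chr12:122752704-122752823, plus strand: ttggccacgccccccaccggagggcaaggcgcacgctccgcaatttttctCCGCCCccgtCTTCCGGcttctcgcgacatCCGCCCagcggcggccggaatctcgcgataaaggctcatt
UNC5B, before the start, chr10:71212450-71212569, plus strand: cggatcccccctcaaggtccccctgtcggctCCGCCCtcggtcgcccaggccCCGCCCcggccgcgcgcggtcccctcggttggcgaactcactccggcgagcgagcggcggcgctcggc
PAFAH1B1, before the start, chr17:2593534-2593653, plus strand: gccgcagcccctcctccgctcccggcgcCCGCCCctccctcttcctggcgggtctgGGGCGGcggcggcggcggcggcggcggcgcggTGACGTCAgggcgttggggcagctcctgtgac

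In the shared peaks the summits of the 3 lists lay close together, which the overlap rule itself favours. Of the 840 peaks, 808 matched a single peak in each knockdown list and the reverse. In these the 3 summits, the positions of highest signal, spanned 63 bp at the median, with quartiles of 28 and 135 bp. They fell within 250 bp in 698 peaks, or 86.4% (95% Wilson interval 83.8 to 88.6), and within 100 bp in 528. The stretch covered in all 3 lists was 279 bp long at the median. All edges lay within 50 bp of the control edges in 70 of the 808 peaks. Together the shared peaks covered 429 kb of the 1069 kb in the control list, or 40.1% of its bases. The 840 peaks touched 839 peaks of the U2AF1 knockdown list and 839 of the DHX9 knockdown list. Counted from those lists, 832 of the 1730 U2AF1 knockdown peaks, or 48.1%, overlapped a peak in each of the other lists. Of the 4443 DHX9 knockdown peaks, 830 did so, or 18.7%. Intervals here cover counting error only, since peaks of 1 list are not replicates.

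The peak at PGK1, a glycolytic enzyme, stood apart. It had fold enrichments of 42.3 in control cells, 111.9 after U2AF1 knockdown and 111.8 after DHX9 knockdown, at places 4, 2 and 1. It spans chrX:78103797-78104351 in the control list, from 451 bases before the canonical start to 104 bases from it on, and its summit lay 162 bp before the start rather than past it. Its edges in the 3 lists differed by at most 2 bp, the smallest difference among the 840 peaks, against a median of 147 bp. A fragment of the human PGK1 promoter is a common part of shRNA vectors. The vector is not given in the sources used here, and any share of this peak from vector copies was not tested. The only peak with a higher mean place was at ENSG00000259397, a processed pseudogene on chromosome 15 (35092562 to 35093208), with fold enrichments of 60.4, 112.5 and 83.3 and no near-identical copy.

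**Figure D1:**
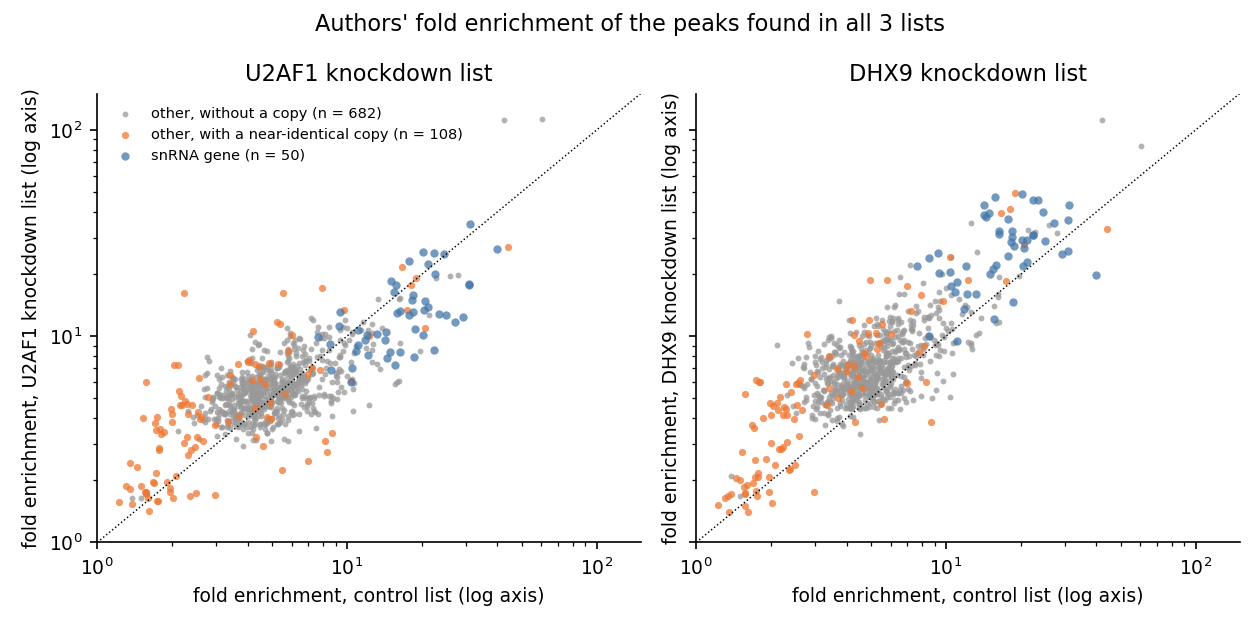
Authors' fold enrichment of each of the 840 shared peaks in the control list (x axis) against the U2AF1 knockdown list (left) and the DHX9 knockdown list (right), on log axes; the dotted line marks equal values. The 50 snRNA peaks (blue) lie among the highest in all 3 lists, peaks with a near-identical copy (orange) make up most of those with a control fold under 2, and PGK1 and ENSG00000259397 stand alone at the top. The folds of the lists are on different scales, so distance from the line is no change.

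The shared peaks were stronger than the control list as a whole, as their selection favours. Their median fold enrichments were 4.95 in control cells, 5.46 after U2AF1 knockdown and 6.84 after DHX9 knockdown, against 4.13, 4.75 and 5.27 for all peaks of those lists. The −log10 q had medians of 12.8, 8.12 and 12.02. Widths were 409.5 bp, 331.5 bp and 458.5 bp at the median. In the control list, peaks overlapped in the DHX9 knockdown list alone had a median fold of 4.12, those overlapped in the U2AF1 knockdown list alone 3.76 and those overlapped in neither 3.67. The share of control peaks found in all 3 lists was 77.2% (71.9 to 81.7, 213 of 276) in the strongest decile, 1 of 10 equal parts of the control list ordered by fold, and 48.2% in the next. It lay between 15.6% and 32.7% in the deciles below. Of the 100 strongest control peaks 90 were shared, and of the strongest 500, 329.

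**Figure D2:**
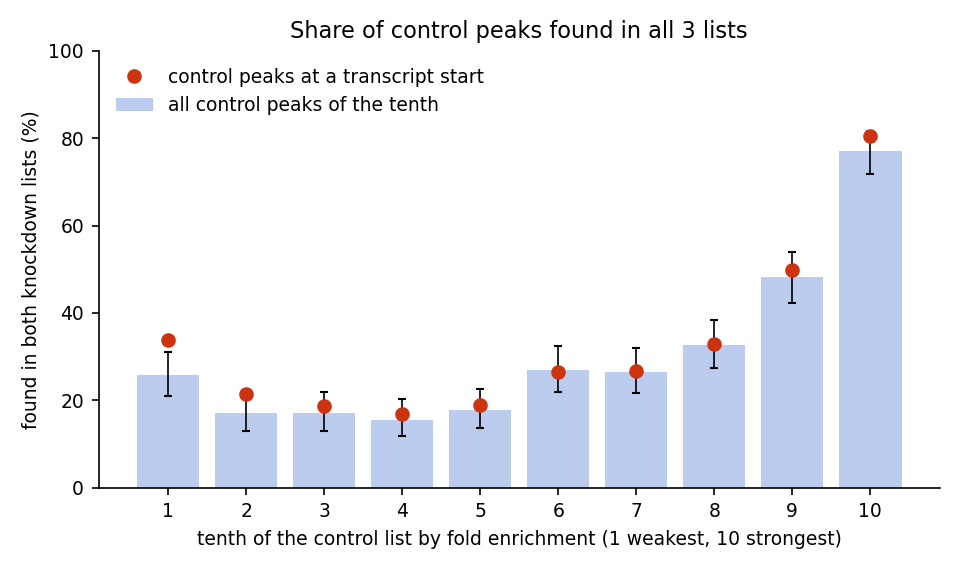
Share of control peaks found in all 3 lists, in percent, for each decile of the control list ordered by fold enrichment (bars, with 95% Wilson intervals), and for the peaks of that decile at an annotated start (points). The share reached 77.2% in the strongest decile; in the weakest it was 25.7%, and 60 of the 71 shared peaks there have a near-identical copy.

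Across the 808 peaks matched one to one, Spearman's rho of the fold enrichment was 0.62 between the control and U2AF1 knockdown lists, 0.65 between the control and DHX9 knockdown lists and 0.63 between the knockdown lists. Without the snRNA peaks the last was 0.56, over 761 peaks. These points are loci within the same libraries, so the values describe the lists and carry no p-value. In all, 112 of the shared peaks stood in the top decile of each list, 46 of them at snRNA genes and 49 at protein-coding genes.

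By position, 756 of the 807 shared peaks on annotated chromosomes had their control summit within 1000 bp of a transcript start (93.7%, 91.8 to 95.2). The share was 97.4% (96.2 to 98.2) among control peaks overlapped in the DHX9 knockdown list alone and 67.7% (64.3 to 70.9) among those overlapped in neither. Another 18 shared peaks lay deeper in a gene body and 33 outside genes. A protein-coding start was within 1000 bp for 657 peaks, or 81.4% (78.6 to 83.9). The share was 79.7% of all control peaks on annotated chromosomes and 93.0% of those overlapped in the DHX9 knockdown list alone. In 282 shared peaks (34.9%, 31.7 to 38.3) the summit had starts that point away from each other within 1000 bp, though it need not lie between them. In the same 2 groups this share was 33.7% and 39.5%. The summit fell in an untranslated exon in 389 peaks, in a coding exon in 119, in an exon of a non-coding transcript in 87, in an intron in 104 and outside genes in 108. As shares in that order these were 48.2%, 14.7%, 10.8%, 12.9% and 13.4%. Over all control peaks they were 42.2%, 15.0%, 9.46%, 12.5% and 20.8%.

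Divergent pairs among the shared peaks included ZBTB4 with POLR2A, SRSF2 with MFSD11, SRSF7 with GEMIN6 and RPL12 with LRSAM1. At ZBTB4 and POLR2A (chr17:7484181-7484862) the fold enrichments were 19.5 in control cells, 8.43 after U2AF1 knockdown and 19.6 after DHX9 knockdown. At RPL12 and LRSAM1 (chr9:127451109-127451624) it was 15.9, 6.01 and 11.6. The U2AF1 knockdown list had the lowest of the 3 values at both. At SRSF2 and MFSD11 (chr17:76736995-76737472) the order was different, with 7.92, 10.2 and 9.09.

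At protein-coding starts the polymerase summit mostly lay just downstream, where paused polymerase is usually found, at similar median distances in each list. Over 642 peaks the median distance from the start was 38 bp in control cells, 47 bp after U2AF1 knockdown and 38 bp after DHX9 knockdown. The summit was downstream of the start in 72.9%, 74.0% and 69.0% of them. From the control list to the U2AF1 knockdown list, the summit lay within 50 bp in 393 peaks, lay more than 50 bp farther downstream in 137 and more than 50 bp upstream in 112. For the DHX9 knockdown list these numbers were 395, 106 and 141. The median shift was 5 bp and 0 bp. Regardless of direction, the median difference was 34 bp and 31 bp.

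Of 50 control peaks at the start of an snRNA gene, 49 were found in all 3 lists. Of the 54 led by any snRNA gene, wherever they lay, 50 were shared (92.6%, 82.4 to 97.1). All 50 snRNA peaks within the strongest decile of the control list were shared, against 163 of the other 226 there (72.1%). That decile spans folds of 6.47 to 60.4, strong peaks are more often shared, and whether the difference holds at matched strength was not tested. snRNAs are the RNA parts of the U1, U2, U4, U5 and minor spliceosomal particles, which recognise and remove introns. The 49 shared peaks at snRNA starts comprised 23 of U1 type, 15 of U2 type, 1 of U4, 7 of U5 and 3 of the minor spliceosome. Their fold enrichment ranged from 7.64 to 40.005 in the control list (median 17.7), from 6.03 to 34.9 in the U2AF1 knockdown list (median 12.7) and from 10.0 to 49.1 in the DHX9 knockdown list (median 26.9). Even the lowest of these values lay above the median of all shared peaks in the same list. Of the 49, 28 have a near-identical copy, among them the U2 genes repeated in a cluster on chromosome 17, and reads from copies cannot be told apart by position.

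Single snRNA genes without a copy showed the same high places. RNU12, the U12 RNA of the minor spliceosome (chr22:42614827-42616076), had fold enrichments of 24.4, 24.9 and 39.8, at places 15, 8 and 11. RNU4ATAC, the U4atac RNA (chr2:121530786-121531793), had 14.8, 8.41 and 39.3, at places 58, 131 and 13. RNU11, of the same minor particle (chr1:28648420-28649583), had 16.3, 13.2 and 31.1. RNU4-2, a U4 gene (chr12:120290763-120293376), had 29.2, 12.4 and 25.03, so here the control list had the highest value. RNU5A-1 (chr15:65295895-65296853) had 21.2, 22.3 and 29.4. RNU2-2P (chr11:62840260-62841967) had 40.005, 26.3 and 19.7, the reverse of the order at RNU4ATAC between the control and DHX9 knockdown lists. RNU4ATAC, RNU11, RNU4-2, RNU5A-1 and RNU2-2P were picked for their class after the values had been seen.

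The summits at snRNA genes lay past the end of the RNA. The genes are 114 to 194 bases long, and the control summit was beyond the 3′ end in 42 of 49, by a median over all 49 of 71 bp. In the U2AF1 knockdown list it was beyond the end in 46 and by 166 bp, and in the DHX9 knockdown list in 47 and by 217 bp. Set against the control list gene by gene, the U2AF1 knockdown summit lay more than 50 bp farther downstream at 25 genes, more than 50 bp upstream at 5 and within 50 bp at 19. In the DHX9 knockdown list these numbers were 28, 1 and 20. The median shifts were 52 bp and 69 bp, beside 5 bp and 0 bp at protein-coding starts. Among the 21 genes without a copy they were 110 bp and 78 bp. The U1 genes had median shifts of 72 bp and 61 bp, and the U2 genes, most of them near-identical, 1 bp and 96 bp. Both shifts are taken from the same control list, and peaks at snRNA genes are wide, 1097 bp at RNVU1-28 and 2614 bp at RNU4-2 for example, and the part of width in the shifts was not tested. At RNU4ATAC the summit stood 226, 361 and 491 bp from the start, and at RNU11 204, 414 and 399 bp. At RNVU1-34, a U1 variant, it stood at 233, 215 and 280 bp, with little difference between lists.

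**Figure D3:**
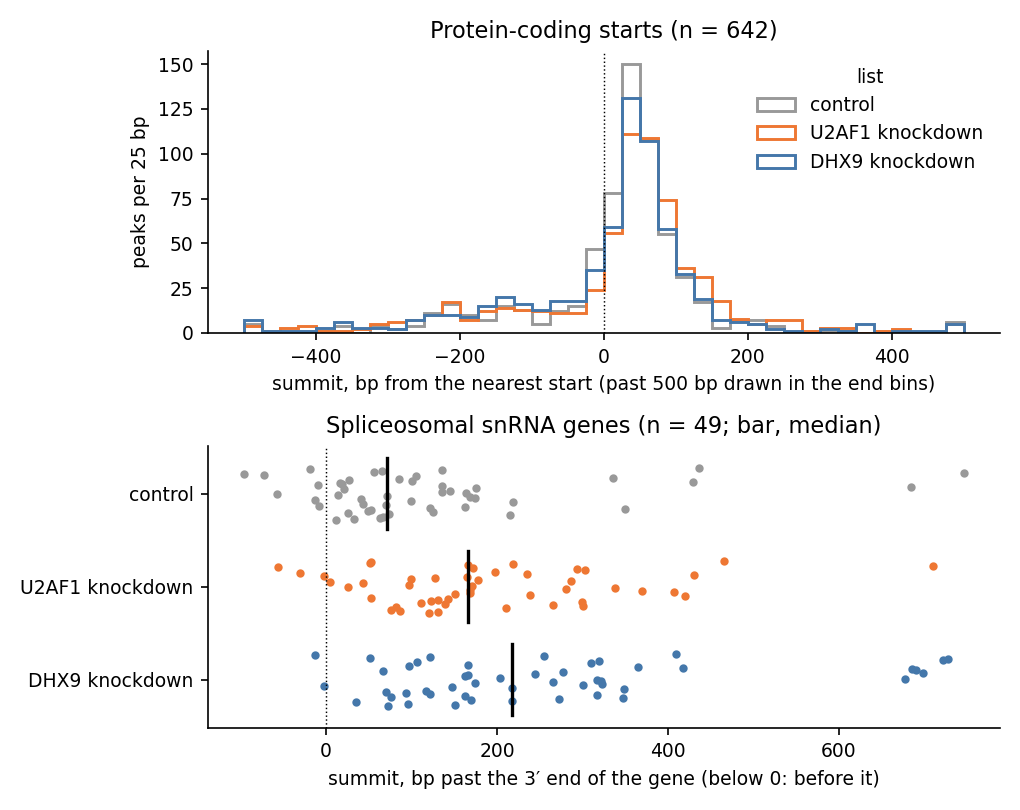
Top, distance of the summit from the protein-coding start in bp for 642 shared peaks matched one to one, in bins of 25 bp (distances past 500 bp drawn in the end bins), for the 3 lists. Bottom, distance of the summit past the 3′ end of the snRNA gene in bp for 49 genes, 1 point per gene, with the median as a bar at 71, 166 and 217 bp. The median coding summit lies a little past the start in each list. Most snRNA summits lie past the gene end, and their median is farther out in both knockdown lists.

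Genes for the small nucleolar RNAs U3 and U8, which have snRNA-type promoters and serve ribosomal RNA processing, were shared as well. SNORD118, the U8 gene (chr17:8172675-8173706), had fold enrichments of 25.8, 19.5 and 34.7, at places 13, 14 and 20. SNORD3B-2, a U3 gene with near-identical copies (chr17:19061801-19064275), had 43.99, 26.9 and 33.2. A further U3 gene without a copy (chr17:58631062-58631982) had 27.8, 19.8 and 31.4. Among long non-coding RNAs, MALAT1 (chr11:65498899-65499250), an abundant nuclear RNA, was shared with folds of 5.80, 8.70 and 13.9. In all, 37 of 179 control peaks led by a long non-coding RNA gene were shared, or 20.7%.

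Genes were grouped by function and read against all 2455 protein-coding genes with a control peak at their start, of which 767, or 31.2%, had a shared one. That share stands in place of a test for each list below, and lists of few genes have wide intervals. Strong control peaks are more often shared, and the lists differ in strength. The median control fold was 9.23 for actin and tubulin, 5.97 for glycolysis, 5.00 for SR proteins and hnRNPs and 4.78 for histone genes. For pausing and elongation factors it was 4.04, and for translation factors 3.95. All control peaks at coding starts had 4.27. Whether the shares differ at matched strength was not tested. The strongest and the weakest gene of a list are those with the highest and the lowest mean place over the 3 lists, which need not have the highest or lowest fold in each. Replication-dependent histone genes, which are expressed in S phase and encode the core of the nucleosome and its linker, had a shared peak at 26 of 37 (70.3%, 54.2 to 82.5). Many histone genes have similar sequences, and without genes whose summit has a near-identical copy 14 of 24 were shared. The 37 genes rest on 30 control peaks, since 1 peak can stand at several starts, so the interval by gene is too narrow. Of the 30 peaks 19 were shared, some spanning a divergent pair, with median folds of 5.28, 5.81 and 9.85. The medians of all shared peaks at coding starts were 4.95, 5.41 and 6.74. The strongest was H1-2, a linker histone whose control summit lay 855 bp past the start, with folds of 10.2, 9.54 and 10.6. The weakest was H4C2 with 2.94, 3.98 and 4.57. Between these, H2AC19 had 4.95, 3.97 and 18.7 and H3C15 had 5.80, 8.51 and 18.7, so the DHX9 knockdown value was the highest at both, and their summits have copies.

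Actin and tubulin genes, which encode the main filaments of the cytoskeleton, were shared at 6 of 6 with a control peak, an interval of 61.0 to 100%. TUBB4B was the strongest with folds of 9.27, 7.90 and 13.9, and TUBB2A the weakest with 4.91, 7.36 and 9.97. Glycolysis genes were shared at 5 of 7. Beside PGK1 these were TPI1 with folds of 7.62, 11.03 and 12.9, PKM with 6.797, 8.16 and 8.66, GAPDH with 4.89, 6.20 and 8.36 and LDHA with 5.97, 5.55 and 5.78. The control peaks of ENO1 and PFKL were not shared.

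Genes of RNA splicing proteins were taken in 3 lists. SR proteins and hnRNPs, which bind pre-mRNA and guide the choice of splice sites, were shared at 10 of 17 (58.8%, 36.01 to 78.4). HNRNPA0 was the strongest with folds of 9.60, 11.1 and 20.1, and SRSF1 the weakest with 4.196, 3.14 and 5.405. The HNRNPA0 summits lay 953, 1033 and 1037 bp past the nearest coding start. With a start window of 500 bp, 9 of 16 genes of this list were shared. Of genes for proteins of the spliceosomal snRNPs, 0 of 6 with a control peak were shared, and the upper bound of 39.0% lies above the 31.2% of all coding genes. Their median control fold was 4.01, below the 4.27 of all control peaks at coding starts. Of the U2 and 3′ splice site factors, 1 of 4 with a control peak was shared, RBM39. The other genes with a control peak were HTATSF1, PUF60 and SF3A2. U2AF1 itself was not among the 4 with a control peak, so no peak of it could be shared in this list. DHX9 had one (chr1:182839286-182839591), with folds of 4.47, 6.03 and 4.81. Of the DEAD and DEAH box helicases 3 of 7 were shared, the others being DDX3X with 6.44, 6.41 and 12.2 and DDX5 with 7.15, 4.18 and 5.44.

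Within the transcription machinery, POLR2A, POLR2L and POLR2C were shared of 7 polymerase subunit genes with a control peak. POLR2L had folds of 5.43, 5.58 and 10.1, and POLR2C 5.87, 5.88 and 4.48. Factors of pausing and elongation were shared at 7 of 12 (58.3%, 32.0 to 80.7). MEPCE, which caps and holds the 7SK RNA that restrains P-TEFb, was the strongest with 7.02, 4.99 and 9.35, and CDK12, a kinase of the polymerase tail, the weakest with 3.83, 6.17 and 3.75. HEXIM1, the inhibitor held on 7SK, had 5.54, 5.19 and 12.01. Immediate early genes, which answer to growth signals within minutes, were shared at 6 of 11. JUND was the strongest with 11.6, 11.7 and 12.8, at nearly the same fold in each list, and JUN the weakest with 5.47, 4.46 and 6.95.

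Genes of protein synthesis came next. Cytosolic ribosomal protein genes were shared at 17 of 55 (30.9%, 20.3 to 44.03), close to the share of all coding genes. RPLP0, of the ribosomal stalk, was the strongest with folds of 8.45, 8.58 and 12.4, and RPL10 the weakest with 3.65, 5.11 and 4.00. Translation factors were shared at 9 of 20 (45%, 25.8 to 65.8). Their shared peaks had median folds of 3.78, 6.23 and 7.98, so in the control list they lay below the median of shared coding peaks and in the other lists above it. EIF4A3, a helicase of the exon junction complex, was the strongest of these with 8.46, 11.02 and 10.1, and EIF4E2, a cap-binding protein, the weakest with 3.11, 5.11 and 5.00. Mitochondrial ribosomal protein genes were shared at 2 of 18 (11.1%, 3.10 to 32.8): MRPS5 with 5.35, 4.98 and 7.67 and MRPL57 with 3.49, 6.22 and 3.90. Oxidative phosphorylation genes were shared at 7 of 25, from NDUFAF3 with 6.13, 6.93 and 7.51 to NDUFV3 with 2.69, 4.24 and 4.80. Proteasome genes were shared at 2 of 7, PSME4 with 4.16, 5.46 and 4.62 and PSMB2 with 3.45, 4.26 and 4.39. Heat shock chaperone genes were shared at 6 of 15, from DNAJB4 with 9.04, 6.43 and 14.9 to DNAJC6 with 3.55, 3.99 and 5.87. Zinc finger genes were shared at 11 of 41 (26.8%, 15.7 to 41.9), from ZNF800 with 5.49, 6.22 and 8.96 to ZNF445 with 4.33, 4.37 and 5.21. Genes that hold an annotated small nucleolar RNA were shared at 42 of 93 (45.2%, 35.4 to 55.3). This list holds long non-coding genes too: 30 of 70 protein-coding members (42.9%, 31.9 to 54.5) and 12 of 23 long non-coding ones (52.2%, 33.0 to 70.8) were shared. SNHG7, a long non-coding gene whose summit has a copy, was the strongest with 7.97, 17.1 and 15.9, and SNHG15, also non-coding, the weakest with 3.01, 5.27 and 4.43.

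**Figure D4:**
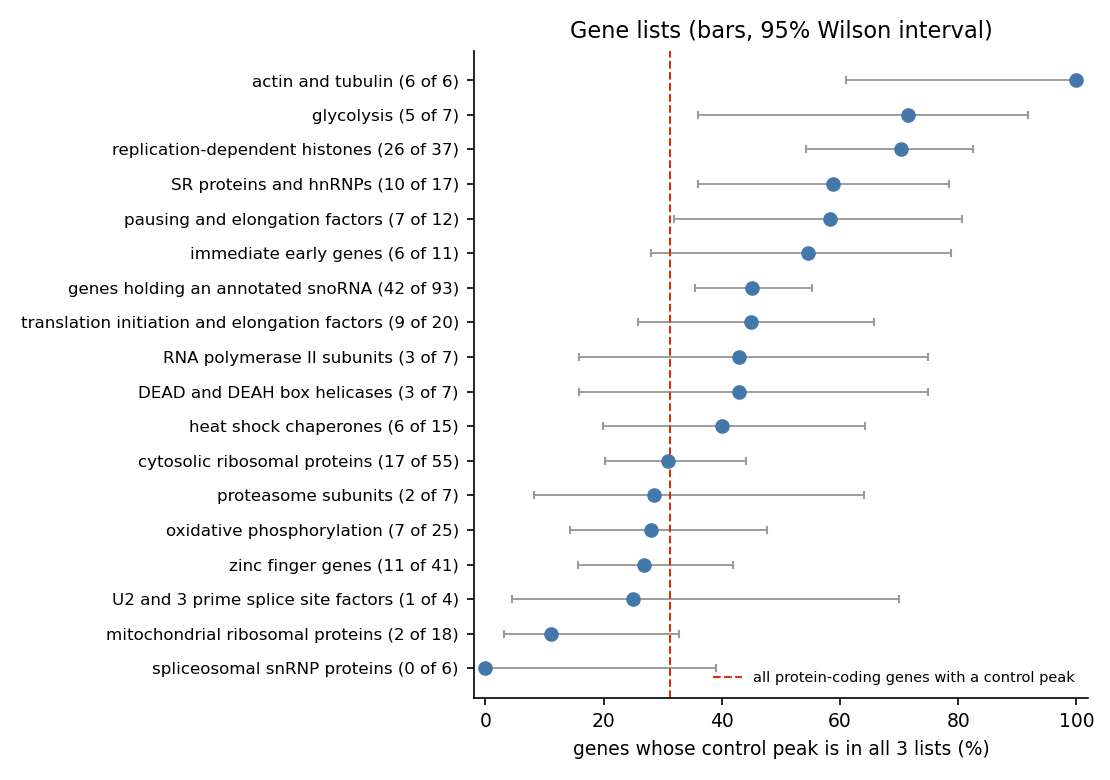
Share of genes with a control peak at their start whose peak is found in all 3 lists, in percent, for 18 gene lists (points, with 95% Wilson intervals; counts in brackets). The dashed line marks the 31.2% of all protein-coding genes; the snoRNA-holding list also has long non-coding genes. Histone, SR and hnRNP, glycolysis, actin and tubulin, pausing factor and snoRNA-holding genes have intervals above the line. The interval of the other lists includes it. The glycolysis count includes PGK1, and the lower bound for pausing factors, 32.0%, is close to the line. No allowance was made for reading 18 lists.

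The order of the shared peaks differed between lists, and the peaks whose places were farthest apart are named next. Places are given as ranks of 2757, 1730 and 4443 peaks, and since the lists differ in length they describe each list and show no change. Of the 627 coding-start peaks compared, without a copy and matched one to one, 225 lay within 10 percentage points of their control place after U2AF1 knockdown and 251 after DHX9 knockdown. Toward the bottom of the control list and near the top of the U2AF1 knockdown list stood DENR and EEF2. DENR, a factor of translation reinitiation (chr12:122752748-122752992), had folds of 2.76, 7.88 and 7.90 and places of 2447, 152 and 480. EEF2, the elongation factor that moves the ribosome (chr19:3985224-3985463), had folds of 2.80, 7.57 and 9.22 and places of 2430, 168 and 267. Both were thus low in the control list alone. SNX5, a sorting nexin, and UQCRC1, a subunit of respiratory complex III, had places of 263 and 214 in the U2AF1 knockdown list, and 2445 and 2268 in the control list. In the DHX9 knockdown list they stood at 2644 and 3495, so these were high in the U2AF1 knockdown list alone. DUSP28 had places of 2464, 286 and 664, with summits 32, 641 and 552 bp past the start, so these are not of the same position.

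In the opposite direction, RPL3, a protein of the large ribosomal subunit (chr22:39319399-39319845), had folds of 7.48, 3.59 and 7.22 and places of 184, 1415 and 694. CTNNB1, which encodes beta-catenin (chr3:41199290-41199689), had folds of 5.82, 3.10 and 9.39 and places of 416, 1515 and 246. PABPC1, which binds poly(A) tails, had folds of 8.67, 4.08 and 9.87 and places of 140, 1191 and 214. All 3 were low in the U2AF1 knockdown list alone. UNC5B, a netrin receptor, stood at 289, 1446 and 2176, and TMEM170A at 484, 1501 and 1664.

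The peaks most apart between the control and DHX9 knockdown lists were different genes except for EEF2. LRRFIP2 (chr3:37176243-37176629) had folds of 2.10, 3.46 and 9.05 and places of 2620, 1444 and 280, low in the first 2 lists and high in the third. CNBP, a nucleic acid binding protein, followed the same order with folds of 2.55, 3.18 and 7.81, as did FAM219B with 2.83, 4.35 and 8.88 and RSAD1 with 2.41, 4.06 and 7.397. The CNBP summits stood at -254, 210 and 121 bp from the start, negative meaning before it, so its folds are not of the same position. Low in the DHX9 knockdown list stood RBM39 (chr20:35742142-35742726), a splicing factor related to U2AF2, with folds of 5.39, 8.42 and 3.92 and places of 559, 129 and 3840. PAFAH1B1, a regulator of dynein, stood at 263, 675 and 3335, POLR2C at 394, 424 and 3261 and TGOLN2 at 1048, 1191 and 4163. Several of these peaks have a −log10 q near the limit of their list, such as 1.398 for TMEM170A in the U2AF1 knockdown list and 1.53 for LRRFIP2 in the control list.

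**Figure D5:**
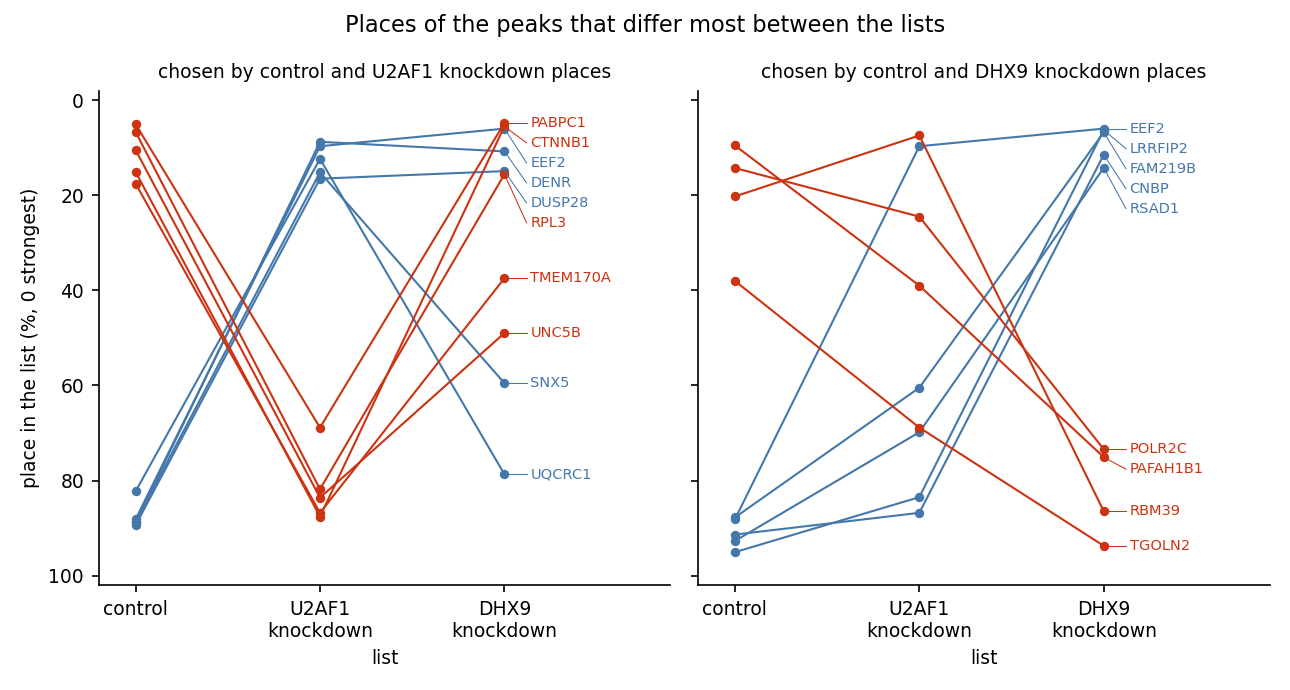
Place of each peak in the 3 lists as a percentage of the list's length (y axis, 0 strongest), for the 5 peaks farthest up (blue) and the 5 farthest down (red) from the control list to the U2AF1 knockdown list (left) and to the DHX9 knockdown list (right). In the right panel 1 of the 5 farthest down is not drawn. The peaks were chosen by these places, so the spread between the plotted ends is no finding; the third list shows, for example, that RPL3, CTNNB1 and PABPC1 stand at high places in the DHX9 knockdown list.

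Sequence around the summits was not used in the choice of peaks. Within 150 bp of the control summit, 84.6% of shared peaks (82.0 to 86.9) were CpG-rich, taken as at least 55% GC and a CpG ratio of at least 0.65. The share was 93.1% (91.4 to 94.5) among peaks overlapped in the DHX9 knockdown list alone and 62.5% (59.1 to 65.8) among those overlapped in neither. At protein-coding starts alone the groups were closer, with 95.7% of shared peaks CpG-rich, 95.3% of those overlapped in the DHX9 knockdown list alone and 91.9% of those overlapped in neither, against 63.4% of 19970 protein-coding promoter windows of the same length. The GC box GGGCGG, the site of SP factors, was found on either strand in 72.4% of shared peaks (69.3 to 75.3) and in 61.5% of the promoter windows. In peaks overlapped in the DHX9 knockdown list alone it was found in 81.5% and in peaks overlapped in neither in 51.1%. At protein-coding starts alone these shares were closer, at 80.4% of shared peaks, 84.0% and 76.4%. CCAAT, the site of NF-Y, was found in 25.1% of shared peaks and 32.8% of promoter windows.

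The TATA box, searched as TATAAA on either strand, was found more often at the shared coding starts than at those of the 2 larger other groups. Among peaks at protein-coding starts it stood in 69 of 657 shared peaks, or 10.5% (8.38 to 13.1). The share was 3.16% (2.21 to 4.50, 29 of 919) in those overlapped in the DHX9 knockdown list alone and 2.89% (1.73 to 4.80, 14 of 484) in those overlapped in neither, and these intervals do not reach that of the shared peaks. In the small group overlapped in the U2AF1 knockdown list alone it was 7.04% (3.05 to 15.4, 5 of 71), an interval that covers the shared value. Strong peaks are more often shared, and whether the difference holds at matched strength was not tested. Over all positions it was found in 89 of 840 shared peaks (10.6%), in 3.40% and 14.8% of these 2 groups in the same order, and in 8.16% of promoter windows. Within 75 bp of the summit it was found in 3.81% of shared peaks, so most matches lie farther out. The snRNA genes gave 8 of the 89. Yet in the 100 bases before the start, on the coding strand, TATAAA stood at only 1 of the 49 snRNA genes. Histone starts gave another 8 of the 89. Among the other coding peaks with TATAAA were those of ACTB, GAPDH, RPLP0, EEF2, DUSP1, ATF3, NFKBIA and HEXIM1, which were picked as familiar genes after the matches had been listed. MKNK2, a kinase of the translation factor eIF4E, was the strongest of them, with folds of 16.3, 15.4 and 19.3.

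The other motifs were at lower shares. The ETS site CCGGAAG was found in 12.7% of shared peaks and 13.5% of windows, the E-box CACGTG in 7.02% and 7.70%, the NRF1 site GCGCATGCG in 2.74% and 2.35%, the CRE site TGACGTCA in 2.62% and 2.39% and the YY1 site AAGATGGCG in 3.33% and 3.01%. TCTCGCGAG was found in 3.21% (2.22 to 4.63) of shared peaks and 0.86% of windows. At protein-coding starts it was in 3.96% of shared peaks, 1.96% of those overlapped in the DHX9 knockdown list alone and 1.86% of those overlapped in neither. The AP-1 site TGACTCA was found in 2.02% and 3.14%, and the CArG box, the site of SRF, in 1.19% and 1.09%. ACTACAATT was found in 0 shared peaks, an upper bound of 0.46%, and in 0.32% of windows. Windows were centred on starts and peaks on summits, so the 2 sets are not aligned to each other.

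A G-rich coding strand downstream of the start, the sequence property linked with R-loops, was about as common at the shared peaks as in the other groups. GC skew is the excess of G over C on the coding strand divided by their sum, taken over 300 bp after the start. It was above 0.05 at 57.2% of the shared peaks at protein-coding starts (53.4 to 61.0, 376 of 657). The share was 58.3% (55.1 to 61.5) among peaks overlapped in the DHX9 knockdown list alone and 57.0% (52.6 to 61.4) among those overlapped in neither. The opposite, a C-rich coding strand, was seen at 18.6%, 16.5% and 16.9% in the same order. The intervals of the 3 groups overlap throughout.

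The weakest shared peaks were of another kind. Of the 35 with a control fold under 2, 33 had a near-identical copy of their summit sequence, defined as at least 95% identity over at least 150 of 200 bp elsewhere in the reference. Of all shared peaks 136 had such a copy (16.2%, 13.9 to 18.8), against 4.70% of peaks overlapped in the DHX9 knockdown list alone and 34.4% of those overlapped in neither. A group of 39 lay in ribosomal DNA repeats, 18 on chromosome 21, 13 on a sequence assigned to chromosome 22 without a position and 8 on a sequence not placed in a chromosome, where 39 of 40 control peaks were shared. Their median fold was 2.23 in control cells, 4.27 after U2AF1 knockdown and 4.62 after DHX9 knockdown. Ribosomal RNA is made by RNA polymerase I, and what reads from the many copies add to these peaks was not tested. The 5 shared peaks with the lowest mean place were 2 at ROCK1P1 on chromosome 18, 1 near DUX4L18 on chromosome Y, 1 inside ARHGEF18 and 1 near ENSG00000263433. At ARHGEF18 (chr19:7450699-7451015), where the summit has no copy, the folds were 1.502, 1.65 and 1.68. All 4 shared peaks on chromosome Y had copies elsewhere.

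Shared peaks outside promoters were few. Of the 18 in gene bodies 9 had a near-identical copy, and of the 33 outside genes 23 had one. Without a copy and with high places were an interval in FRMD4A (chr10:14185453-14186120) with folds of 10.5, 6.20 and 24.1 and one nearest to RNU7-56P (chrX:16771078-16771900) with 11.1, 10.8 and 9.52. Both were singled out after their values had been seen.

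At the edge of the rule, the smallest overlaps inside it were 21 bp at TOLLIP, 33 bp at FAM13B and 37 bp at RHOQ, whose control folds were 2.88, 3.00 and 3.79. The nearest control peaks outside it missed the U2AF1 knockdown list by 76 bp at POLH, 126 bp at SLC12A2 and 191 bp at PHF10, with control folds of 4.37, 5.83 and 6.48. Such close misses were rare: of 1115 control peaks overlapped in a single knockdown list, 22 had a peak within 1000 bp in the other, and the median gap was 328117 bp.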

How the data were processed

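POLR2A ChIP-seq was done in HEK293T cells under 3 conditions, with 2 ChIP replicates and 1 input each, and 1 peak list per condition was analysed. Bowtie2 2.4.5, MACS2 2.2.7.1, deepTools 3.5.1 and the build hg38 are named in the submitters' processing notes, without role or order. Read filters, use of the input and pooling of replicates are not given in the sources used here. Each deposited list gives, in the narrowPeak layout, the authors' fold enrichment as a ratio. The authors' −log10 p and −log10 q and a score that is a multiple of the latter are deposited beside it, with the summit's offset. No depth is given, so precision could not be stated per peak.

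Overlap, summits, places, gene positions (GENCODE 44, starts within 1000 bp) and motifs within 150 bp of the summit were computed in Python 3.11.15. Used with it were pandas 2.3.3, numpy 2.4.6 and pysam 0.24.0, with blastn 2.17.0 for near-identical copies. The overlap and the search for GGGCGG were checked on simulated intervals and sequences, and the other steps were not. Shares carry 95% Wilson intervals and no test was made. The shared peaks and the gene lists were chosen with earlier results of these data known. Named genes are the 10 strongest and 5 weakest shared peaks by mean place, the 5 farthest up and down in each knockdown list among coding starts, the edges of the rule, the POLR2A, DHX9 and U2AF1 loci, and the strongest and weakest of each gene list, or all of a list of at most 5. Of these, 1 gene is not reported here. Others are said to be chosen after their values were seen, as were further gene list members given between these extremes and the divergent pairs. Sequences are from hg38, and the promoter share of TNACC is from RefSeq. Alternatives changed the overlap, strength limit, windows and copy definition.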

Additional observations from a re-analysis of the deposited data

How the results depend on the processing

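No paired analysis was possible because replicates have no peak lists of their own, and none could be left out. The number of shared peaks was 840. It was 573 when only peaks with a −log10 q of at least 5 were used and 572 with the 1730 strongest peaks of each list. Requiring 50% of the shorter peak gave 808, and summits within 250 bp gave 725. A start window of 500 bp in place of 1000 bp put 91.6% of shared peaks at a start in place of 93.7%. It put 30.2% near divergent starts in place of 34.9%. Summits of all 3 lists lay within 100 bp in 65.3%, against 86.4% within 250 bp. With a skew above 0.1 in place of 0.05, 39.3% of coding starts had a G-rich coding strand in place of 57.2%. On chromosomes 1 to 22 and X alone, an alternative chosen after seeing the data, 12.3% had a near-identical copy in place of 16.2%. Of the 25 recomputed main values, 20 moved by less than their counting interval or, for counts, less than 1.5 times. A motif window of 75 bp in place of 150 bp moved 11 of 12 motif shares, TATAAA to 3.81% from 10.6%, CCAAT to 6.31% from 25.1% and GGGCGG to 44.9% from 72.4%. Read depth and replicate spread, which limit every comparison between lists, are unknown.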
